A study of Mus musculus with 101 samples.

Results

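The RNAs described here are the small nucleolar RNAs (snoRNAs), the small Cajal body RNAs (scaRNAs), the RNA subunits of RNase MRP (Rmrp) and RNase P (Rpph1), and the telomerase RNA (Terc), in astrocyte ribosome precipitates and cortex lysates of mice given lipopolysaccharide (LPS) or phosphate-buffered saline (PBS). Members were all rows whose symbol starts with Snora, Snord or Scarna and a number, plus Rmrp, Rpph1 and Terc, that were above 0 in at least 10 libraries. Of 122 rows that match these names, 109 met the limit, among 21330 genes above 0 in at least 1 library. They comprise 64 C/D box snoRNAs, 33 H/ACA box snoRNAs, 9 scaRNAs, Rmrp, Rpph1 and Terc. Snord123, just inside the limit, was above 0 in 13 libraries with 25 reads in all, and just outside it Snord118 was above 0 in 8 libraries with 58 reads and Snord38a in 6 with 7 reads. A further 11 rows were listed at 0 in every library, among them Snord116 from an imprinted snoRNA cluster on the same chromosome as Snord64. Of the members, 13 were above 0 in all 101 libraries and 91 in at least 50.

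C57 mice, as the strain label has it, were injected intraperitoneally with 5 mg per kg LPS, which Gram-negative bacteria carry in their outer membrane and to which innate immune cells respond, or with PBS. The tissue areas, labelled PFC and VCX, were taken 1, 2 or 14 days later. RNA was prepared from ribosomes of astrocytes precipitated through a hemagglutinin tag (IP) and from the cleared lysate before precipitation (input). The 24 IP and input groups are LPS and PBS for each day, area and fraction, with 4 libraries each except the LPS groups of the day 2 PFC IP and the day 2 VCX input, which have 3. A further 3 LPS and 4 PBS libraries of day 1 PFC were made from whole tissue, all from females, while the set as a whole has 55 female and 46 male libraries. All mice share the strain label, and the sources used here give neither their age nor the promoter that drives the tag. Libraries are not said to come from separate animals, so the p-values measure the spread between libraries, which may be technical.

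SnoRNAs guide chemical modification of ribosomal RNA in the nucleolus. C/D box snoRNAs direct ribose methylation by fibrillarin, and H/ACA box snoRNAs direct pseudouridylation by dyskerin. ScaRNAs carry the same boxes but reside in Cajal bodies, where they guide modification of spliceosomal RNAs. RNase MRP cleaves the precursor of ribosomal RNA, RNase P removes the leader of tRNA precursors, and Terc is the template that telomerase copies. Most snoRNAs of mammals are cut from introns of host genes after splicing, and these RNAs work in the nucleus rather than on translating ribosomes. Mature snoRNAs, Rmrp and Rpph1 also lack a poly(A) tail, while the libraries are labelled as polyA RNA and were sheared to 125 bp fragments. The levels are therefore those of whatever part of each RNA entered such libraries.

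The sequences below are those of the members that the results turn on, from the GENCODE vM21 annotation on GRCm38 (mm10), 5′ to 3′. All 109 members have an entry there and in RefSeq. The deposited files give no lengths. The length worked back from the FPKM, the smallest that makes every value a whole number of reads, equals the RefSeq length for 98. Rmrp (chr4:43492788-43493058, minus strand) and Rpph1 (chr14:50807449-50807767, minus strand) lie in no host gene on their strand, and of Rpph1 the first 300 of 319 bases are shown. The capitals mark the longest run of bases that both RNAs share, 9 bases that start at position 183 of Rmrp and position 17 of Rpph1.
Rmrp: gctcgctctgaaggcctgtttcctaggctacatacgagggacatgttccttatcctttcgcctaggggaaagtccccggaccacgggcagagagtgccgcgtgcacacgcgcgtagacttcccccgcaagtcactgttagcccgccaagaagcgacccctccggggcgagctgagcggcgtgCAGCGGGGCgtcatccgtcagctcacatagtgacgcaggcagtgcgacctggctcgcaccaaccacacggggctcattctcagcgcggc
Rpph1: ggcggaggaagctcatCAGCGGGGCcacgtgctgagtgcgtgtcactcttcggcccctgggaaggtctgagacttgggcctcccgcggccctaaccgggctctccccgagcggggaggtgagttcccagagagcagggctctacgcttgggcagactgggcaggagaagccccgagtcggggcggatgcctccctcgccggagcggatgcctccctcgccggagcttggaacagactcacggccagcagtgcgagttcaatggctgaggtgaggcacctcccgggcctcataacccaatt

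Scarna13 (chr12:105031075-105031349, minus strand), the member whose IP and input levels stayed closest, lies in an intron of the noncoding gene Snhg10. Snora28 (chr12:111540941-111541067, plus strand) and Snora65 (chr2:32963291-32963420, plus strand) are H/ACA snoRNAs in introns of Eif5 and Rpl12 and were lower in the IP throughout. Snora23 (chr7:110046364-110046547, plus strand), in an intron of Ipo7, was called in a comparison of LPS with PBS. Capitals mark ACA within the last 8 bases.
Scarna13: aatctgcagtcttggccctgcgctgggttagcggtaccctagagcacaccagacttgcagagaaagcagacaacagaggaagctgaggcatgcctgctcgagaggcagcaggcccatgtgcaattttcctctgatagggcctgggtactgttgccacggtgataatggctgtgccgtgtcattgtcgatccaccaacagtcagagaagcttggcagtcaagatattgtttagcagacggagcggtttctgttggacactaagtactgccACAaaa
Snora28: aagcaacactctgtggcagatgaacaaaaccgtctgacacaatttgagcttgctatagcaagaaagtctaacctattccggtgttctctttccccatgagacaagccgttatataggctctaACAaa
Snora65: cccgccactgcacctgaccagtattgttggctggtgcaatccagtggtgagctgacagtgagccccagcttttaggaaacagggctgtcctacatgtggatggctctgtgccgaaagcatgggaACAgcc
Snora23: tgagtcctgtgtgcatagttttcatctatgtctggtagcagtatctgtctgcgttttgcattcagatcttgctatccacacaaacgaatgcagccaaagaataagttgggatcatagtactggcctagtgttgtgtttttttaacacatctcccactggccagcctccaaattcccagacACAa

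Snord64 (chr7:59978808-59978874, minus strand), Snord17 (chr2:144265979-144266216, minus strand) and Snord104 (chr11:106500993-106501062, plus strand) are the C/D snoRNAs with the most reads. Snord64 lies in an intron of Gm38393 and Snord17 in an intron of Snx5, and Snord104 has no host on its strand. Capitals mark TGATGA (box C) within the first 25 bases and CTGA (box D) within the last 20 bases.
Snord64: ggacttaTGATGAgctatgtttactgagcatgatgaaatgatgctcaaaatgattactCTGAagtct
Snord17: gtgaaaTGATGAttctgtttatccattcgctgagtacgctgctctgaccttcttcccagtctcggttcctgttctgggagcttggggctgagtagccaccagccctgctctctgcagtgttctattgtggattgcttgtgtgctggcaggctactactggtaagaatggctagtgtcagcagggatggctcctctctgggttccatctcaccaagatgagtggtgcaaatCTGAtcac
Snord104: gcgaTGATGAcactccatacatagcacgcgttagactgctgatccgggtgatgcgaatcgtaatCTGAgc

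Searched on the RNA strand only, TGATGA was found in that window in 39 of 64 C/D snoRNAs (60.9%), 0 of 33 H/ACA snoRNAs and 4 of 9 scaRNAs (44.4%). CTGA was found in 62 of 64 C/D snoRNAs (96.9%), 4 of 33 H/ACA snoRNAs (12.1%) and 5 of 9 scaRNAs (55.6%). ACA stood within the last 8 bases of 6 of 64 C/D snoRNAs (9.38%), 31 of 33 H/ACA snoRNAs (93.9%) and 4 of 9 scaRNAs (44.4%). The names in the files thus go with the boxes in the sequences for most members. The 109 members lie on 20 chromosomes, and their worked-back lengths are 22 to 397 bases, with a median of 83.0.

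The libraries held 4.21 to 72.96 mega-reads (median 40.8), and 3 of them, all day 14 input, were under 10. Levels are given in scaled FPKM, the deposited FPKM (fragments per kilobase, scaled to depth) divided by a scaling factor per library. The summed level of 12 astrocyte markers was 17030 to 24268 scaled FPKM in the IP, 700 to 1054 in the input and 1262 to 1521 in whole tissue, and all 12 were called higher in the day 1 PFC PBS IP. The 12 neuron markers summed to 136 to 420 scaled FPKM in the IP and 2267 to 2947 in the input, with 12 of 12 lower. None of these markers was at 0 throughout a group. Markers of neutrophils and monocytes summed to 2.14 to 229 scaled FPKM in the IP and 0.236 to 25.4 in the input. Where groups are compared, these marker values stand beside every IP result, and their part in the results was not tested. In tissue, fewer cells of a type and less RNA per cell cannot be told apart. The input holds all cell types, so a low IP level of an RNA that ribosomes exclude cannot be told apart from a low level in astrocytes.

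The members took up a far smaller share of the reads in the IP than in the input. At day 1 they made up 0.0242 to 0.0742% of reads in the IP (median 0.0457%) and 0.391 to 0.755% in the input (median 0.540%). At day 2 the shares were 0.0175 to 0.0422% in the IP and 0.431 to 1.20% in the input, and at day 14 they were 0.0296 to 0.0518% in the IP and 0.517 to 1.97% in the input. The ranges of the fractions did not overlap on any day. Whole tissue held 0.537 to 0.870%. Rpph1 alone made up 0.00954 to 0.0681% of IP reads and 0.273 to 1.71% of input reads, and Rmrp 0.000253 to 0.00413% of IP reads and 0.0496 to 0.344% of input reads. All C/D snoRNAs together reached 0.000196 to 0.000695% in the IP and 0.00175 to 0.00350% in the input, which is 61 to 343 reads per IP library and 108 to 1402 per input library. The H/ACA snoRNAs reached 0.000160 to 0.000633% in the IP and 0.00187 to 0.00733% in the input. The number of members above 0 was 36 to 96 per IP library and 53 to 103 per input library. Single snoRNAs therefore rest on few reads, and Rmrp and Rpph1 on many.

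**Figure D1:**
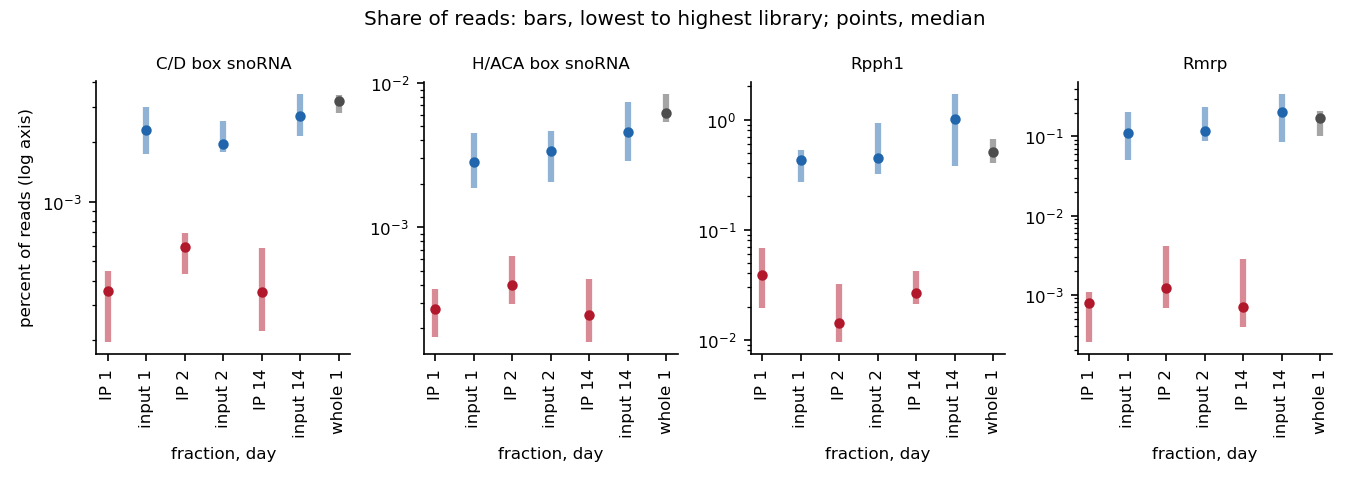
Percent of all reads of a library (log axis) taken by the C/D snoRNAs, the H/ACA snoRNAs, Rpph1 and Rmrp, by fraction and day, with bars from the lowest to the highest library and points at the median. Every IP bar lies below the input bar of its day, for Rmrp at 0.000253 to 0.00413% in the IP and 0.0496 to 0.344% in the input over all days.

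With reads pooled over all 47 IP and all 47 input libraries, 107 of the 109 members were lower in the IP, against 54.3% of all 19902 genes with a value. The median of the members was -1.68 on the log2 scale of IP over input, and that of all genes -0.16. The exceptions were Snord14a at 0.44, a C/D snoRNA, and Scarna13 at 0.08. The worked-back length of Snord14a is 22 bases, against 87 in RefSeq, and its read numbers rest on that length. The fall was steepest for Rmrp, 93.7-fold, then Scarna6 (40.0-fold), Snora74a (32.3-fold), Terc (16.2-fold), Scarna10 (15.1-fold), Rpph1 (11.8-fold) and Snord17 (11.1-fold). By class, the median was -1.56 for C/D snoRNAs, -1.85 for H/ACA snoRNAs and -1.28 for scaRNAs. These pooled ratios are descriptions with no test.

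The size of the difference varied with the day. At day 1, 105 members were lower and 4 higher in the IP with a median of -2.02, against 52.6% of all genes lower. At day 2, 100 were lower and 8 higher with a median of -0.85, against 53.0%. At day 14, 108 were lower and 1 higher with a median of -2.19, against 54.7%. The class medians moved in the same way: -1.90, -0.69 and -2.0 for C/D snoRNAs, -2.32, -1.16 and -2.37 for H/ACA snoRNAs, and -1.60, -0.84 and -2.19 for scaRNAs at days 1, 2 and 14. The nuclear RNA Malat1, a long noncoding RNA that is no member, moved along: its level was 131 to 229 scaled FPKM at day 1, 291 to 690 at day 2 and 81.8 to 258 at day 14 in the IP, against 489 to 793, 513 to 908 and 398 to 650 in the input. Each day is a sequencing project of its own, so day and project cannot be told apart, and the share of nuclear RNA in the day 2 IP was not tested as a cause. Over the 98 members with at least 50 input reads, length and log2 ratio had a Spearman correlation of -0.34, with 0.00 within C/D snoRNAs (55 members) and -0.10 within H/ACA snoRNAs (32 members); all points share the same libraries, and this is a description.

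**Figure D2:**
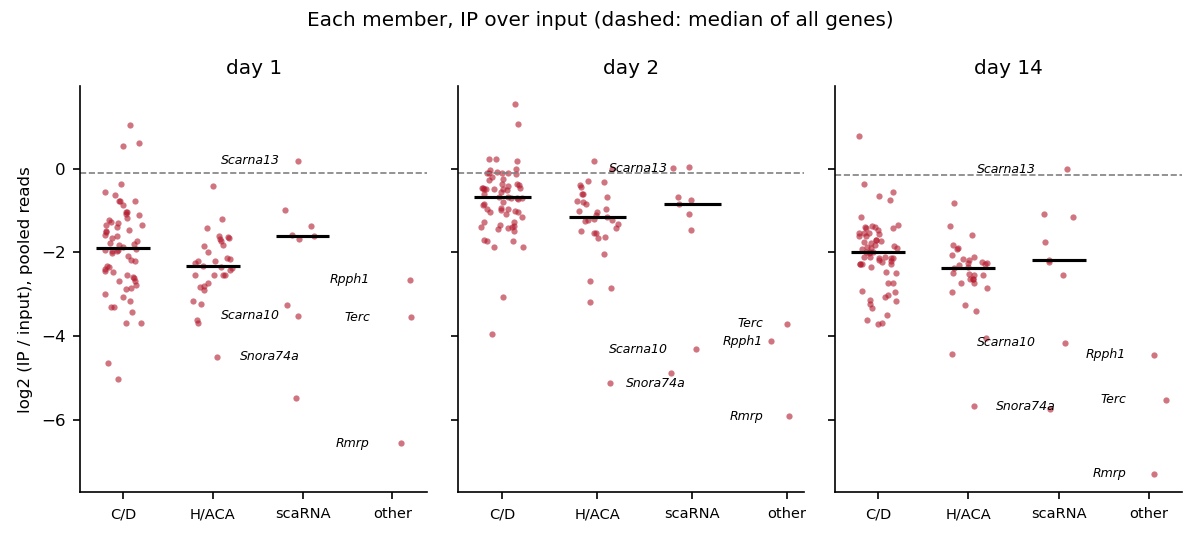
Log2 of IP over input for each member from pooled reads, by class, at days 1, 2 and 14, with the median of all genes as a dashed line. Nearly every point lies below 0, with class medians nearer to 0 at day 2 (-0.69 for C/D snoRNAs) than at day 1 (-1.90) or day 14 (-2.0), and Rmrp lies lowest on each day.

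The comparison of IP with input within a day and area asks which RNAs were lower in the precipitate of tagged ribosomes than in the lysate. Depletion here means such a lower level, whatever its cause. It was tested with limma on log2(scaled FPKM + 0.1), with Benjamini-Hochberg adjustment over all genes tested, and a member is called at an adjusted p under 0.05. In PBS mice at day 1, 58 of 99 members that passed the filter on low values were lower in the PFC IP and 0 higher, against 40.9% of all genes lower. In the VCX, 72 of 99 were lower and 0 higher, against 41.3%. At day 2 the counts were 30 of 106 lower in the PFC against 40.8%, and 36 of 106 lower in the VCX against 39.8%, with 1 higher against 42.8%. At day 14 they were 61 of 102 in the PFC against 41.2% and 56 of 102 in the VCX against 40.9%. Calls of a higher level in the IP were 0 among the members in the other 5 comparisons, against 42.2% and 42.6% of all genes in the PFC and VCX at day 1, 41.6% in the PFC at day 2, and 41.4% and 40.9% in the PFC and VCX at day 14. The share of members called lower was thus above that of all genes at days 1 and 14 and below it at day 2. Without rescaling, the day 2 counts became 58 lower in the PFC and 61 in the VCX (54.7% and 57.5% of the members tested), against 62.8% and 62.4% of all genes, and over the 12 comparisons of PBS or LPS mice 59.5 to 63.7% of all genes were then called lower and 22.7 to 25.3% higher. The excess at day 14 narrowed without rescaling, to 66.7% of members against 61.5% of all genes in the PFC and 65.7% against 61.1% in the VCX. In LPS mice the day 14 shares were then 62.7% against 59.9% and 61.8% against 59.5%. At day 1 in PBS mice they were 70.7% against 60.2% in the PFC and 84.8% against 62.2% in the VCX. With the compared groups alone, the members' share in the day 2 PFC was 42.7%, against 42.2% of all genes. The median of the tested members was -2.09, -2.63, -0.82, -0.97, -2.34 and -2.09 in these 6 comparisons, while that of all genes lay between -0.03 and 0.02.

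The LPS libraries gave the same comparison in a separate set. The counts lower in the IP were 54 of 99 in the day 1 PFC (40.3% of all genes), 49 of 99 in the day 1 VCX (40.3%), 41 of 106 in the day 2 PFC (39.2%), 40 of 106 in the day 2 VCX (39.3%), 56 of 102 in the day 14 PFC (40.4%) and 53 of 102 in the day 14 VCX (39.3%). In each of the day 2 PFC and day 14 VCX 1 member was higher, against 42.5% and 42.8% of all genes. Called in all 12 comparisons were 14 members, all lower: Rmrp, Rpph1, Terc, Scarna6, Scarna10, the H/ACA snoRNAs Snora7a, Snora16a, Snora28, Snora65 and Snora74a, and the C/D snoRNAs Snord17, Snord64, Snord96a and Snord104. At least 1 call lower was found for 98 members and 6 or more for 54. How often all genes were called lower over the 12 comparisons was not counted. The counts of 14, 98 and 54 are therefore not shown to be particular to the members. H/ACA snoRNAs passed more often than C/D snoRNAs, for example 24 of 32 tested against 27 of 56 in the day 1 PFC of PBS mice and 15 of 33 against 8 of 62 in the day 2 PFC; the difference between classes was not tested, and C/D snoRNAs had fewer reads each.

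Rmrp had the lowest log2 difference of all tested genes in each of the 12 comparisons. In the day 1 PFC of PBS mice it stood at 38.2, 45.2, 36.0 and 11.8 scaled FPKM in the IP, against 1487, 3350, 2100 and 3086 in the input. The highest IP library lay far below the lowest input library. The difference was -6.34 ± 0.33 (standard error, 4 libraries per fraction; limma adjusted p = 2.14e-15), an 81.2-fold lower level. In the VCX at day 1 the 4 IP libraries held 19.1 to 43.2 scaled FPKM and the 4 input libraries 3110 to 5910, a 173-fold difference. The PBS libraries of day 2 gave 75.2-fold in the PFC and 70.4-fold in the VCX, and those of day 14 gave 211-fold in the PFC and 184-fold in the VCX. Over all days Rmrp ran from 11.8 to 187 scaled FPKM in the IP (median 39.0) and from 1487 to 10077 in the input (median 3767), with no overlap.

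Rpph1 held the most reads of any member, and its difference between the fractions was smaller than that of Rmrp. In the day 1 PFC of PBS mice it stood at 1515, 1561, 1806 and 2675 scaled FPKM in the IP, against 11228, 11453, 8750 and 8905 in the input. All IP libraries lay below all input libraries, and the difference was -2.44 ± 0.29 (limma adjusted p = 2.19e-08, 5.44-fold lower). The gap was wider in the PBS libraries of the other days: -4.18 ± 0.30 in the PFC and -4.49 ± 0.30 in the VCX at day 2, and -4.15 ± 0.35 in the PFC and -4.70 ± 0.35 in the VCX at day 14. Day and sequencing project cannot be told apart, and no test between days was made. The class medians, unlike Rpph1, were nearest to level at day 2. In the PFC of PBS mice, Scarna6, Scarna10 and Snora74a also differed more at day 2 than at day 1. Their differences were -5.67, -4.50 and -5.17 at day 2 and -4.72, -3.29 and -3.75 at day 1. In the VCX they differed less at day 2 (-4.64, -4.34 and -5.03) than at day 1 (-6.13, -5.22 and -5.72). The IP level of Rpph1 was lowest at day 2, at 395 to 1276 scaled FPKM, against 797 to 2726 at day 1 and 830 to 1617 at day 14. The input level was 6880 to 13081, 8072 to 23406 and 9403 to 40980 at days 1, 2 and 14.

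**Figure D3:**
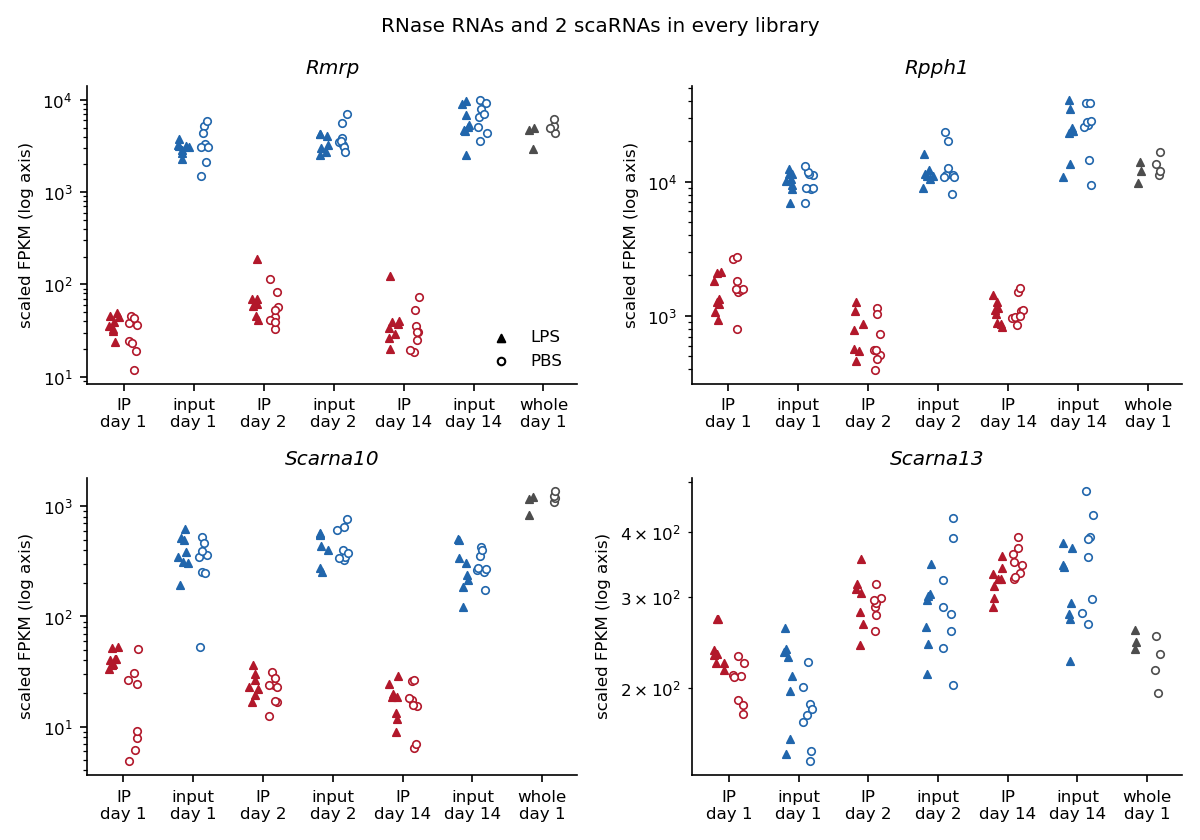
Scaled FPKM (log axis) of Rmrp, Rpph1, Scarna10 and Scarna13 in every library, by fraction and day, with triangles for LPS and open circles for PBS. IP and input do not overlap for Rmrp, Rpph1 and Scarna10, while Scarna13 lies at 178 to 391 scaled FPKM in the IP and 144 to 480 in the input.

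Terc was near the limit of detection in the IP. It was at 0 in 24 of 47 IP libraries and at most at 0.376 scaled FPKM, against 0.251 to 2.18 in the input, where it was detected in all 47. In reads this is 49 in all IP libraries together and 882 in all input libraries. In the day 14 PFC of PBS mice the IP stood at 0, 0, 0.176 and 0 scaled FPKM and the input at 1.11, 1.49, 1.99 and 1.85 (-3.70 ± 0.47, limma adjusted p = 4.13e-08). In the day 14 VCX of LPS mice all 4 IP libraries were at 0, which makes Terc at least 16.1-fold lower there, with a floor of 3 reads over the group.

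The scaRNAs ranged from strongly depleted to level between the fractions. Scarna10 stood at 26.3, 30.9, 24.5 and 6.16 scaled FPKM in the day 1 PFC PBS IP, against 52.8, 252, 251 and 349 in the input (-3.29 ± 0.55, limma adjusted p = 7.01e-06). Its IP and input libraries did not overlap, although the first input library lay well below the other 3. Over the 12 comparisons its difference ran from -5.22 to -3.13. Scarna6 was at 0.382, 0.283, 0.718 and 0.941 in the same IP libraries and at 12.4, 17.1, 19.7 and 17.8 in the input (-4.72 ± 0.57, adjusted p = 4.04e-08). Its 47 IP libraries held 0 to 2.16 and its 47 input libraries 11.7 to 43.3 scaled FPKM.

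Scarna13 did not follow. In the day 1 PFC PBS IP it had 223, 212, 211 and 178 scaled FPKM, against 151, 172, 224 and 186 in the input, which overlapped. Over all days its level was 178 to 391 in the IP, 144 to 480 in the input and 195 to 258 in whole tissue. It was called in none of the 12 comparisons, with differences from -0.11 to 0.24 and standard errors of 0.13 to 0.16. Without rescaling of the deposited values the difference turned negative in 10 of the 12, at -0.73 to -0.47, and was called lower in each of them. In the day 2 PFC and the day 14 VCX of PBS mice it was already negative with rescaling. The median of all genes moved by -0.72 to -0.62 without rescaling. Scarna13 had 788 to 4404 reads per IP library and 334 to 4672 per input library. The other scaRNAs had weaker or fewer calls: Scarna2 was lower in 9 of 12 comparisons (-2.77 to -0.53), Scarna3a in 9 (-3.60 to -0.91), Scarna3b and Scarna9 in 3 each and Scarna17 in 1. Scarna8 did not pass the filter in any, with at most 0.473 scaled FPKM in the IP and 0.909 in the input. The worked-back lengths and those in GENCODE differ for Scarna10 (71 and 325 bases) and Scarna2 (61 and 414 bases), which bears on their level per length but not on the ratio.

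Among the H/ACA snoRNAs, Snora74a was the most depleted in the reads pooled over all days. It had 3.83, 3.31, 4.70 and 1.33 scaled FPKM in the day 1 PFC PBS IP, against 24.7, 50.3, 60.4 and 39.7 in the input (-3.75 ± 0.44, limma adjusted p = 1.93e-08). Over all 12 comparisons it lay between -6.18 and -3.75, and no IP library (0.283 to 5.56) reached an input library (24.7 to 196). Snora65 had 1.20, 0.990, 0.838 and 0 in the day 1 PFC PBS IP and 8.58, 12.5, 14.7 and 8.57 in the input (-4.17 ± 0.70, adjusted p = 6.43e-06), and its differences ran from -5.04 to -1.52. Snora28 had 2.93, 2.70, 4.25 and 0.482, against 9.73, 15.6, 11.3 and 23.8 (-2.73 ± 0.59, adjusted p = 0.000153). In both the groups did not overlap. Snora7a was lower by 1.21 to 2.93 on the log2 scale, but it overlaps an exon of the ribosomal protein gene Rpl32, so its reads cannot be told apart from those of Rpl32. Snora3 was called lower in 10 of the 12 comparisons, with differences from -3.80 to -0.63 (0 to 6.10 scaled FPKM in the IP and 1.46 to 7.25 in the input).

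Of the C/D snoRNAs, Snord64 had 4.63, 9.15, 9.03 and 3.17 scaled FPKM in the day 1 PFC PBS IP, against 45.1, 79.3, 60.9 and 106 in the input (-3.53 ± 0.46, limma adjusted p = 1.40e-07). The groups were apart by a wide margin. At day 2 its difference shrank to between -1.91 and -1.17. Snord17 had 2.78, 0.952, 0.448 and 0.660 in the IP and 13.3, 11.4, 12.3 and 10.3 in the input (-3.49 ± 0.43, adjusted p = 5.55e-08), with differences from -4.78 to -2.53 over the 12 comparisons. Snord104 had 4.86, 6.40, 18.2 and 5.59 in the IP and 12.3, 25.3, 22.2 and 21.8 in the input (-1.38 ± 0.38, adjusted p = 0.00194). There the third IP library lay above the first input library, so the groups overlapped.

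Other C/D snoRNAs with many reads differed less. Snord15b was called lower in 10 of the 12 comparisons, with differences from -2.45 to -0.59, and Snord42b in 5, with differences from -1.45 to 0.49. Snord42b ran from 1.43 to 27.9 scaled FPKM in the IP and from 4.26 to 21.9 in the input, ranges that overlap. Some snoRNAs were at 0 in a whole IP group. Snord99, which overlaps an exon of Snhg12, was at 0 in all 4 day 1 VCX PBS IP libraries and at 7.90, 7.80, 9.15 and 3.83 scaled FPKM in the input, at least 21.3-fold lower (limma adjusted p = 5.62e-07). Snord85 was at 0 in all 4 day 14 PFC PBS IP libraries and at 2.43, 3.03, 3.35 and 5.22 in the input, at least 11.3-fold lower (adjusted p = 5.85e-05), from 27 reads. Both were picked for their large change in these comparisons, and the LPS IP group of the same day and area held 10 reads of each. Over the 12 comparisons Snord99 was called lower in 6, with differences from -6.11 to 0.14. Snord85 was called lower in 8, with differences from -5.12 to -0.92.

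Calls in the other direction were few and rested on few reads. Snord14a was higher in the day 14 VCX IP of LPS mice, at 6.96, 41.0, 18.1 and 18.4 scaled FPKM, against 2.44, 2.94, 8.90 and 0 in the input (3.44 ± 0.84, limma adjusted p = 0.000545). These are 41 and 9 reads, and the groups overlapped. Snord70 was higher in the day 2 PFC IP of LPS mice, at 1.47, 1.81 and 5.07 in 3 libraries, against 0, 0, 2.75 and 0 in the input (3.48 ± 1.35, adjusted p = 0.0218). Snord98 was higher in the day 2 VCX IP of PBS mice, at 8.72, 6.02, 6.58 and 12.9, against 1.57, 6.38, 1.93 and 7.78 (1.19 ± 0.50, adjusted p = 0.0326). That call was lost without rescaling and with median-of-ratios factors. Of the members tested, 7 were never called: Scarna13, Snora36b, Snord1b, Snord34, Snord57, Snord92 and Snord93. Snord1b and Snord1c share 64.3% of their 20-base words and Snord88a and Snord88c 45.1%, so reads may be split between these copies.

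Most members lie inside a host gene: 101 of 109 fall within a gene on the same strand, 95 of them without overlap of an exon of that host, while 6 overlap an exon of it (Snora7a in Rpl32, Snora44, Snora61 and Snord99 in Snhg12, Snord22 in Snhg1, Snord88a in 2410002F23Rik). Exons of other genes, on either strand, lie over some of the 95. Among these are Scarna10 (Gm28967), Scarna13 (Mir3069), Snora74a (Gm49347) and Snora81 (Gm49346), where reads may come from those genes. The rest, Rmrp, Rpph1, Terc, Scarna2, Scarna17, Snora17, Snora43 and Snord104, have no such host. In the day 1 PFC of PBS mice, the member lay below its host in 71 of 82 pairs with both tested, with a median IP minus input difference of -2.09 for the members and -0.33 for the hosts. The VCX at day 1 showed this in 74 of 82 pairs, and at day 14 in 70 of 85 pairs in the PFC and 72 of 85 in the VCX. At day 2 it was so in 47 of 87 pairs in the PFC (medians -0.75 for the members and -0.68 for the hosts) and 52 of 87 in the VCX (-0.72 and -0.61). In LPS mice at day 2 it was so in 48 of 87 pairs in the PFC (-0.92 and -0.63) and 57 of 87 in the VCX (-1.18 and -0.69). Several members share a host, so pairs are not independent, and no test was made. Strand use in the counting is not given in the sources used here, so reads from an antisense or unspliced host transcript cannot be told apart from those of the snoRNA.

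Single pairs went in opposite directions. Snora28 stood at -2.73 in the day 1 PFC of PBS mice, while its host Eif5, a translation initiation factor gene, stood at 1.27. Snord17 stood at -3.49, and its host Snx5, a sorting nexin gene, at 1.59. Scarna10 stood at -3.29, and its host Ncapd2, which encodes a condensin subunit, at 0.47. For Snora65 and its ribosomal protein host Rpl12 both values were negative, -4.17 and -1.74. Scarna13 was the reverse case, with 0.18 for the scaRNA and -1.24 for its noncoding host Snhg10, and at day 14 in the PFC the values were 0.02 and -1.72.

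**Figure D4:**
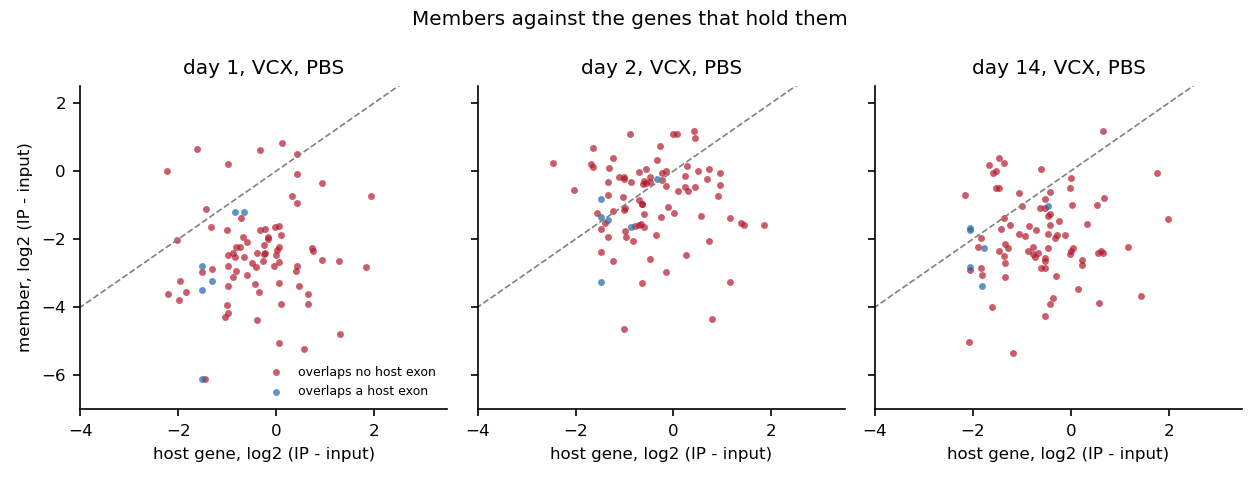
Log2 difference of IP minus input of each member (vertical) against that of its host gene (horizontal) in the VCX of PBS mice at days 1, 2 and 14, red for members that overlap no host exon, blue for the others, with the line of equality dashed. Most points lie below the line at day 1 (74 of 82 pairs) and day 14 (72 of 85) and fewer at day 2 (52 of 87).

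The messages of the protein partners split between both directions. The following lists were counted in the day 1 PFC of PBS mice, where 42.2% of all genes were higher and 40.9% lower in the IP. Of 4 tested core proteins of C/D snoRNPs, 1 was higher in the IP (Nhp2l1 at 0.45 ± 0.09) and 2 lower (Nop56 at -0.64 ± 0.07 and Nop58 at -0.34 ± 0.09). Of 4 H/ACA core proteins, Dkc1, which encodes dyskerin, was higher at 0.55 ± 0.09, and Nop10 (-0.48 ± 0.11) and Nhp2 (-0.24 ± 0.10) were lower. Of 13 assembly and Cajal body proteins 5 were higher, among them Naf1 at 1.14, and 5 lower, among them Shq1 at -2.17. The 11 proteins of RNase P and RNase MRP split in the same way, 5 higher with Rpp14 at 1.92 and 5 lower with Rpp25 at -3.13, and a list median of -0.01. Of 4 telomerase proteins 3 were higher and 1 lower, Tert at -1.15, which encodes the reverse transcriptase.

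Other noncoding RNAs were also lower in these libraries. All 4 tested RNAs of a list of other small structured RNAs were lower, with Rnu12, a minor spliceosomal RNA, at -3.76 ± 0.59 and Vaultrc5, a vault RNA, at -2.34 ± 0.41 (limma adjusted p = 2.55e-06 and 6.85e-06). Of 8 nuclear long noncoding RNAs, 8 were lower with a median of -2.26, Meg3 at -2.59 among them, and at day 2 in the PFC 7 of 8 were lower with a median of -1.30. Of 14 noncoding snoRNA host transcripts, 11 were lower and 1 higher (Snhg18 at 2.09 ± 0.19), with a median of -1.18. Replication-dependent histone messages, which also lack a poly(A) tail but are translated, gave 12 higher and 18 lower of 54, with a median of -0.35, and 6 higher and 33 lower at day 2 in the PFC.

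Whether the depletion differed between the areas was tested as the PFC minus VCX difference of IP minus input in PBS mice. No member was called by limma at day 1 (0 of 99, against 6.88% of all genes), day 2 (0 of 106, 4.52%) or day 14 (0 of 102, 1.91%), and 15, 5 and 5 had an unadjusted p under 0.05. The share of all genes with an unadjusted p under 0.05 was not counted. The lowest adjusted p was 0.0539 at day 1. Replicate 4 of the day 1 VCX PBS IP touches this result: Scarna10 had 50.8 scaled FPKM in it, against 4.81, 7.88 and 9.19 in the other 3. No other single library left out gave more calls, and this one was singled out with the data seen. Without that library 7 of 102 members were called, against 17.2% of all genes, of which 6 were less depleted in the PFC than in the VCX (Scarna2, Scarna10, Snora74a, Snora78, Snord2 and Snord49a, from 1.83 for Scarna2 to 3.52 for Snord49a) and 1 more (Snord61 at -3.65).

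The LPS comparison asks whether inflammation altered these RNAs in astrocyte ribosomes or in the cortex. Rmrp was called in none of the 13 comparisons of LPS with PBS, with differences from -0.52 to 0.54, and neither was Rpph1, from -0.27 to 0.60, by limma. The standard errors of 0.21 to 0.44 for Rmrp and 0.16 to 0.39 for Rpph1 leave changes of that size below detection. At day 1, 1 of 63 members that passed was called in the PFC IP (20.7% of all genes), 3 of 63 in the VCX IP (21.8%), 2 of 98 in the PFC input (16.8%) and 0 of 98 in the VCX input (17.9%). At day 2 the counts were 2 of 93 in the PFC IP (7.84%), 2 of 93 in the VCX IP (7.29%), 0 of 105 in the PFC input (3.71%) and 0 of 105 in the VCX input (2.01%). At day 14 limma called 0 of 59 members in each IP and 0 of 100 in each input, and 0% of all genes, with 6, 4, 3 and 5 members at an unadjusted p under 0.05. The share of all genes with an unadjusted p under 0.05 was not counted there either. The share of members called was below that of all genes wherever any gene was called in these 12 comparisons.

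Scarna13 rose in the day 1 PFC IP, to 223, 237, 272 and 272 scaled FPKM in LPS mice, against 223, 212, 211 and 178 in PBS mice (0.28 ± 0.09, limma adjusted p = 0.0315). The groups touched, with the lowest LPS and the highest PBS library both at 223. Its differences in the day 1 VCX IP (0.15 ± 0.09) and PFC input (0.30 ± 0.17) did not pass. Snord53 fell in the day 1 PFC input, to 3.09, 3.0, 4.13 and 3.21 in LPS mice, against 5.67, 5.31, 6.96 and 7.30 in PBS mice (-0.89 ± 0.26, adjusted p = 0.0364), without overlap, while the VCX input gave 0.20 ± 0.26. Snora23 fell in the day 2 PFC IP, to 1.41, 0.348 and 0.438 in 3 LPS libraries, against 1.99, 1.52, 2.60 and 1.65 in PBS libraries (-1.44 ± 0.33, adjusted p = 0.0159), also without overlap. The VCX IP of that day gave 0.12 ± 0.30.

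The remaining calls were at low levels. Snora81 fell in the VCX IP at day 1, to 2.21, 0.681, 1.27 and 1.08 scaled FPKM in LPS mice, against 5.55, 3.07, 1.59 and 2.36 in PBS mice (-1.17 ± 0.39, limma adjusted p = 0.0485), and at day 2, to 3.57, 1.15, 4.66 and 1.37, against 3.47, 4.80, 5.25 and 2.94 (-0.79 ± 0.22, adjusted p = 0.0485). The groups overlapped on both days. Snord2, which shares the host Eif4a2 with Snora81, rose in the day 1 VCX IP, to 2.24, 2.30, 1.28 and 1.16, against 0, 0, 0.768 and 2.21 (2.23 ± 0.72, adjusted p = 0.0432), with overlapping groups. Snord49a rose there too, to 2.46, 3.96, 3.65 and 1.90, against 0, 0, 1.68 and 1.73 (2.81 ± 0.79, adjusted p = 0.0239), without overlap. Snora2b fell in the day 1 PFC input, to 1.88, 1.87, 0.275 and 0.728, against 1.89, 1.83, 3.87 and 2.75 (-1.29 ± 0.34, adjusted p = 0.0187), with overlapping groups. Without replicate 4 of the day 1 VCX PBS IP, 6 of 70 members were called in that IP in place of 3, against 30.1% of all genes: Scarna2, Scarna10, Snora2b, Snord2, Snord49a and Snord55, all higher in LPS mice. Scarna10 then reached 2.42 ± 0.45 (limma adjusted p = 0.00241), against 1.78 with all libraries (limma adjusted p = 0.0523). Scarna10 itself stood out in that library, at 50.8 scaled FPKM against 4.81 to 9.19. No other single library left out gave more calls, and this one was singled out with the data seen. The result without it is therefore no separate support.

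Against PBS groups at 0 the change is only bounded. Snora44, which overlaps an exon of Snhg12, had 0.667, 0.547 and 0.689 scaled FPKM in the day 2 PFC IP of LPS mice (8 reads) and 0 in all 4 PBS libraries, at least 3.51-fold higher (adjusted p = 0.0348). Snord66 had 1.68, 0, 2.86 and 0.484 in the day 2 VCX IP of LPS mice (8 reads) and 0 in all 4 PBS libraries, at least 2.75-fold higher (limma adjusted p = 0.0459). Most of these calls were fragile. With limma-voom on the recovered reads, of these calls those of Scarna13 and Snora44 remained, and leaving out single libraries ended the call of Snord53 in 7 of 8 cases, of Snora44 in 7 of 7, of Snord66 in 5 of 6 and of Scarna13 in 5 of 8.

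**Figure D5:**
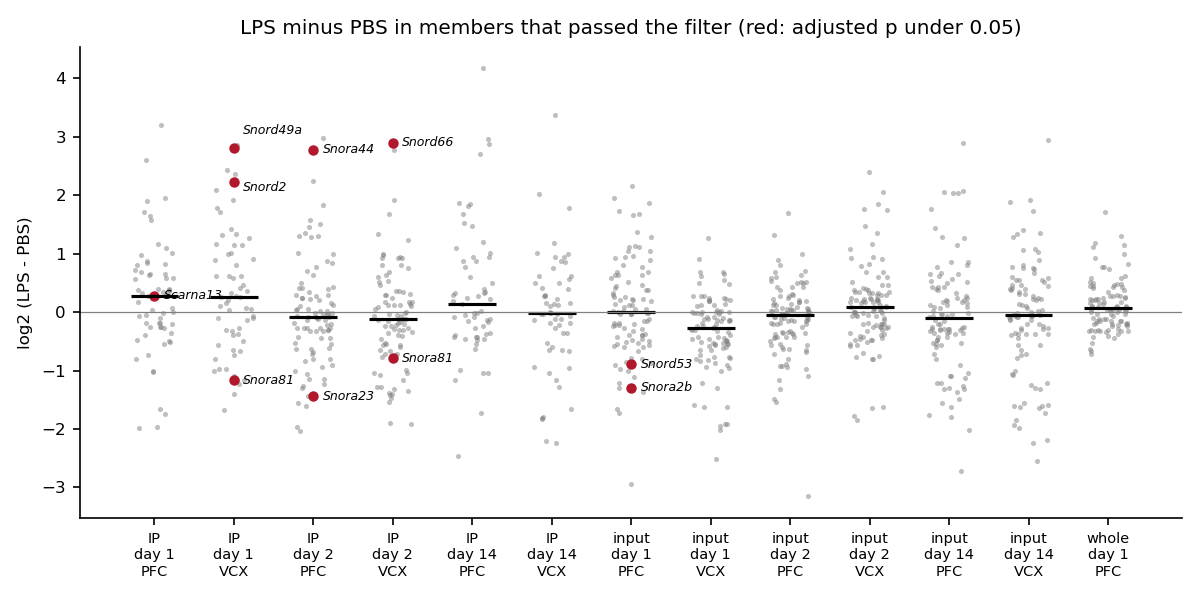
Log2 difference of LPS minus PBS for each member that passed the filter in the 13 comparisons, with called members in red. The medians lie between -0.27 and 0.28, and the calls are 1, 3, 2 and 0 at day 1 and 2, 2, 0 and 0 at day 2 for the PFC IP, VCX IP, PFC input and VCX input, with 0 at day 14 and in whole tissue.

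The LPS effect on the depletion itself, the difference of IP minus input between LPS and PBS mice, was called for 1 member in each of 2 comparisons. Snora68 gave 4.13 ± 1.10 in the day 1 VCX (limma adjusted p = 0.0193, 1 of 99 members and 8.90% of all genes). That call was lost with limma-voom and with the compared groups alone. It stood at 0.973, 0.684, 0.355 and 0.201 scaled FPKM in the IP of LPS mice and at 0 in all 4 IP libraries of PBS mice, at least 2.78-fold higher, while the input held 2.13, 0, 1.98 and 3.07 in LPS mice and 2.43, 4.46, 5.58 and 1.75 in PBS mice. The PFC at day 1 had all 8 IP libraries at 0. Snora23 gave -1.58 ± 0.39 in the day 2 PFC (adjusted p = 0.0496, 1 of 106 members and 0.867% of all genes). Its input held 2.98, 1.66, 4.28 and 2.77 in LPS mice and 2.48, 3.25, 2.17 and 2.18 in PBS mice, overlapping, whereas the IP did not overlap. Without replicate 4 of the day 1 VCX PBS IP the count in the day 1 VCX was 6 of 102, against 16.7% of all genes, and 12 of the 15 libraries, left out singly, ended the call of Snora23. Replicate 4 was singled out with the data seen, and no other library left out gave more calls in the day 1 VCX. In the other 4 comparisons limma called 0 members (5.89% of all genes in the day 1 PFC, 1.09% in the day 2 VCX and 0% in both areas at day 14).

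In whole tissue of the day 1 PFC, 0 of 100 members and 0.00676% of all genes were called between LPS and PBS by limma, with 9 members at an unadjusted p under 0.05. All genes at that unadjusted threshold were not counted. The file headers of replicates 3 and 4 labelled PBS differ from their titles, and replicate 3 stands apart: Lcn2, an acute phase gene, was at 18.2 scaled FPKM in it, against 31.9 to 41.4 in the LPS libraries and 0.181 to 0.761 in the other 3 PBS libraries, and Saa3 was at 70.6, against 99.8 to 124 and 0.109 to 0.689. Without that library 4 of 99 members were called, against 10.7% of all genes: Snora69 (1.04 ± 0.14, adjusted p = 0.000664), Snora17 (0.40 ± 0.08, adjusted p = 0.00767) and Snord22 (0.29 ± 0.07, adjusted p = 0.0224) higher and Snord72 (-0.40 ± 0.08, adjusted p = 0.00842) lower in LPS mice.

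The whole tissue libraries also show the members before any precipitation. They come from another sequencing project, so fraction and project cannot be told apart and no test was made. Relative to the day 1 PFC input, 87 of 106 members with a value were higher in whole tissue, with a median of 0.78 on the log2 scale, against 51.3% of all 19120 genes and a median of 0.02. Of the classes, 31 of 33 H/ACA snoRNAs, 46 of 62 C/D snoRNAs and 7 of 8 scaRNAs were higher. The highest ratios rested on few input reads, 30.5 for Snord42a (111 whole tissue and 4 input reads), 27.2 for Snord91a (593 and 24) and 14.3 for Snord34 (26 and 2), which were picked for their size. The ratio was 7.14 for Snora78, 5.18 for Scarna9, 4.94 for Scarna17, 3.49 for Snora74a and 3.46 for Scarna10. It was 1.72 for Rmrp and for Terc, 1.27 for Rpph1, 1.14 for Scarna13 and 0.887 for Snord64. Malat1 was at 1133 to 1579 scaled FPKM in whole tissue and 398 to 908 over all input libraries, of every day and both areas. Snora74a was at 123 to 253 scaled FPKM in whole tissue and at 24.7 to 196 over all input libraries, so the ranges overlapped. Snord14a was at 0 in all 7 whole tissue libraries, although it was above 0 in 93 of 94 IP and input libraries.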

How the data were processed

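RNA-seq was measured in 101 libraries of 26 groups. Reads were aligned with STAR to mm10 and counted with HTSeq, per the submitters' processing notes, which are used here without versions. The authors deposited FPKM per gene, with 24060 entries per file, and 27 entries carry a date in place of a symbol, of which 4 were left out. All 1752709 positive values came out as whole reads within 0.05 once gene length and library total were worked back, so 100% of values were whole. The length was searched for so as to make every value whole, so this share alone is no check of the read numbers. From simulated FPKM, the reads of 5857 of 5931 genes (98.8%) were recovered. FPKM were divided by TMM factors computed from these reads (trimming 30% of log ratios and 5% of levels). Genes with at least 0.5 FPKM in as many libraries as the smallest group has were tested with limma 3.58.1 (R 4.3.3 and its package data.table, 1.17.8) on log2(scaled FPKM + 0.1), a scale that understates the changes of low genes, with sex as a covariate except in whole tissue. All IP and input libraries of a day were fitted together for IP against input, and those of a day and fraction for LPS against PBS, and p-values were adjusted over all genes tested by the Benjamini-Hochberg method, with calls at 0.05. Counting errors follow from 4.21 to 72.96 mega-reads per library. A group at 0 was set to a floor of 3 reads over the group, which covers counting error only. Alternatives were no rescaling, median-of-ratios factors, a pseudocount of 1, no filter, a filter of 10 reads, limma-voom, sex left out, the compared groups alone, libraries under 10 mega-reads left out, and each library left out. Scripts were tested on simulated data (Python 3.11.15, NumPy 2.4.6, pandas 2.3.3, matplotlib 3.10.9). The rule for named members takes Rmrp, Rpph1, Terc, all scaRNAs, the 15 snoRNAs with the most reads, the 4 members with the largest called change per direction of each IP comparison in PBS mice, every member called between LPS and PBS and the members beside the limit of 10 libraries. The members and lists were chosen with earlier results of these data known.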

Additional observations from a re-analysis of the deposited data

Results flagged for a closer look

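In groups of 4 libraries, 8 members were tested for a single library far from the other 3. This was found in 15 of 183 combinations of member and group, where chance gives about 5% for normally distributed values. The combinations share libraries and are not independent. In 4 of the 15, all Terc, the other 3 libraries were at 0, so that any detected read sets the library apart. Rmrp was at 124 scaled FPKM in replicate 4 of the day 14 VCX IP of LPS mice, against 26.2 to 39.0 in the others. Rpph1 was at 15991 in replicate 1 of the day 2 PFC input of LPS mice (others 10423 to 11097) and at 23406 in replicate 2 of the PBS input (others 11144 to 12651). At day 14 it was at 10768 in replicate 4 of the PFC input of LPS mice (others 23175 to 23950) and at 9403 in replicate 1 of the PBS input (others 25387 to 27968).

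Terc was at 0.356 scaled FPKM in replicate 1 of the day 1 PFC input of PBS mice (others 1.14 to 1.26) and at 1.62 in replicate 4 of the day 1 VCX input of PBS mice (others 0.473 to 0.660). In the IP it was at 0.137 in replicate 1 of the day 2 VCX PBS group, 0.244 in replicate 1 of the day 14 PFC LPS group, 0.176 in replicate 3 of the day 14 PFC PBS group and 0.0739 in replicate 2 of the day 14 VCX PBS group, with the other 3 libraries of each at 0. Scarna13 was at 242 in replicate 1 of the day 2 VCX IP of LPS mice (others 305 to 317), and Scarna2 at 81.7 in replicate 3 of the day 14 VCX IP of LPS mice (others 60.9 to 62.5). Snora74a was at 101 in replicate 2 of the day 2 PFC input of PBS mice (others 62.0 to 67.2), the library in which Rpph1 was also highest. Scarna10 was at 50.8 in replicate 4 of the day 1 VCX IP of PBS mice (others 4.81 to 9.19).

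The difference of IP minus input differed between LPS and PBS mice for Snora68 in the day 1 VCX, by 4.13 ± 1.10 (limma adjusted p = 0.0193), and for Snora23 in the day 2 PFC, by -1.58 ± 0.39 (limma adjusted p = 0.0496).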

How the results depend on the processing

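No paired analysis was possible because the labels give no replicate number that pairs libraries across groups. Of 14 members lower in the IP in all 12 comparisons, 13 were recomputed under the alternatives. Wherever they were tested, 9 kept each call, also with each library left out (Rmrp, Rpph1, Terc, Scarna6, Scarna10, Snora28, Snora65, Snora74a and Snord17). Terc was not tested under every setting in the day 1 PFC PBS, day 2 VCX PBS and day 14 PFC LPS comparisons. Without rescaling, the median of all genes moved by -0.72 to -0.62 and the members called in IP against input became 58 (from 30, day 2 PFC PBS), 61 (from 37, day 2 VCX PBS) and 62 (from 40, day 2 VCX LPS), with 1 in the day 1 area difference, 0 in the day 1 PFC IP and 1 in the day 2 VCX IP between LPS and PBS. Scarna13 then turned negative and was called lower, at -0.47 and -0.55 (day 1 PFC, PBS and LPS), -0.50 and -0.51 (day 1 VCX), -0.73 (day 2 PFC LPS), -0.61 and -0.55 (day 2 VCX), -0.65 and -0.60 (day 14 PFC) and -0.60 (day 14 VCX LPS). With the compared groups alone, the counts were 38 of 70 members tested in place of 58 of 99 (IP against input, day 1 PFC PBS), 2 and 0 for the LPS effect on IP minus input (day 1 VCX, where Snora68 was not among them, and day 2 PFC), 1 for the day 2 area difference, and 1, 4, 2 and 0 between LPS and PBS (day 1 VCX IP, PFC input, VCX input, day 2 VCX IP). A pseudocount of 1 gave 2 and 0 for the LPS effect (day 1 VCX, day 2 PFC), 2 for the day 1 area difference and 1 for LPS against PBS in the day 1 VCX input. With limma-voom the LPS effect gave 0 and 0, and LPS against PBS gave 1 (day 1 VCX IP), 0 (day 1 PFC input), 1 (day 2 PFC IP) and 0 (day 2 VCX IP). No filter gave 0 (LPS effect, day 2 PFC), 2 (day 1 PFC IP) and 0 (day 2 VCX IP); leaving out sex gave 0, 1 (day 1 PFC input) and 0 (day 2 VCX IP); a filter of 10 reads gave 1 (day 1 VCX IP) and 1 (day 2 VCX IP), and median-of-ratios factors 1 (day 2 VCX IP). The cause of these shifts was not tested. With each library left out, IP against input gave 51 to 62, 63 to 74, 25 to 31, 32 to 38, 52 to 64 and 45 to 54 in PBS mice and 44 to 51, 43 to 54, 30 to 42, 34 to 41, 45 to 54 and 48 to 69 in LPS mice (PFC then VCX at days 1, 2 and 14). The LPS effect gave 0 to 1, 1 to 6, 0 to 1, 0 to 1, 0 to 0 and 0 to 0, and the area difference 0 to 7, 0 to 1 and 0 to 1. LPS against PBS gave 0 to 3 and 0 to 6 (day 1 IP), 1 to 3 and 0 to 2 (day 1 input), 0 to 2 and 0 to 2 (day 2 IP), 0 to 1 and 0 to 1 (day 2 input), 0 to 0 in both day 14 IPs and the PFC input, 0 to 1 in the day 14 VCX input, and 0 to 4 in whole tissue. Leaving out both whole tissue PBS libraries whose header differs from the title, chosen after seeing the data, gave 5 of 102 members, against 14.4% of all genes. Of the values of single members and the shares of pairs with the member below its host, 2148 under other settings kept their call or lack of one. An uncalled value that changed sign counts as kept. A further 40 lost and 13 gained a call, and 10 changed sign with a call in either fit. With a library left out 2211 kept their call or lack of one, 95 lost and 10 gained a call. Most snoRNAs had few reads in the IP, so a change in a single snoRNA there was often not detectable at this depth.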
